A study of Mus musculus with 2 samples.

Results

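The SR proteins and the heterogeneous nuclear ribonucleoproteins (hnRNPs) are the 2 large families of RNA-binding proteins that set which exons of a pre-mRNA are joined. Their genes were taken as all protein-coding genes of the GENCODE M21 annotation whose symbol begins with Hnrnp, or is Srsf followed by a number. The rule gave 31 genes, 20 hnRNP and 11 SR, of 21474 protein-coding genes measured, and all 31 were present in both gene tables. Their 212 transcripts in the transcript tables were grouped by annotated type.

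Total RNA was sequenced from hearts of B6NCrl mouse embryos at embryonic day 16.5, with male and female embryos pooled and no genetic change or treatment. There were 2 libraries, numbered as biological replicates of 1 group, each made from 10 ng of RNA, size-selected above 200 nt, to which ERCC standards had been added. Replicate 2 was a pool of 41 embryos' hearts, and for replicate 1 the labels give no such number. Both pools carry 1 donor identifier but separate biosample records, so the spread between them may hold both biological and technical parts. A single group allows no contrast between conditions, and no p-value was computed. Values are TPM, relative transcript numbers corrected for transcript length, given for each library or as mean ± SD (n = 2).

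SR proteins carry RNA recognition motifs and a tail rich in arginine and serine, and bound to exons they recruit the splicing machinery to nearby splice sites. Most hnRNPs also bind pre-mRNA as it is made, and many of them block splice sites or exons, so that the choice of an exon often depends on the balance between the families. Both families are known to control their own amounts through alternative splicing of their own transcripts: inclusion of a "poison" exon with an early stop codon, or splicing of a further intron behind the normal stop, marks the transcript for nonsense-mediated decay, and a retained intron can hold it in the nucleus. In heart muscle, genetic removal of several of these factors is known to disturb the splicing of contractile and calcium-handling genes.

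The libraries held 37160624 and 40360242 estimated counts, with 1.62% and 3.41% on spike-ins, and the biological coefficient of variation over 17185 genes was 0.199. All 7 heart muscle markers were at 1 TPM or more in each library and none of the markers of any list was at 0 in both. Markers of other organs differed between the pools. The 6 lung epithelium markers summed to 1066 TPM in replicate 1 and 215 in replicate 2, and all 6 were higher in replicate 1. The 7 thymus markers summed to 68.1 and 177.6 TPM and the 6 fast skeletal muscle markers to 23.1 and 53.1, each of these being higher in replicate 2. Erythroid markers were abundant in both, with 4 of 4 at 1 TPM or more. In such bulk tissue, fewer cells of a type and less RNA per cell cannot be told apart, and each level below is a sum over all cells of the pool.

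All 31 genes were at 1 TPM or more in each library, against 59.1% of all protein-coding genes measured. The median level of the members was 110 TPM, beside 3.69 TPM over all protein-coding genes. At 100 TPM or more in each library were 17 members, 10 hnRNP and 7 SR, against 5.91% of all protein-coding genes. Summed over each family, the hnRNP genes gave 3661 TPM in both replicates and the SR genes 1845 and 1888 TPM. The hnRNP sum was therefore 1.96 ± 0.032 times the SR sum. A few genes carried most of each sum: the 3 highest genes made up 52.9% and 53.3% of the hnRNP total, and 59.6% and 58.3% of the SR total. Together the 31 genes held 0.636% and 0.670% of all protein-coding TPM.

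**Figure D1:**
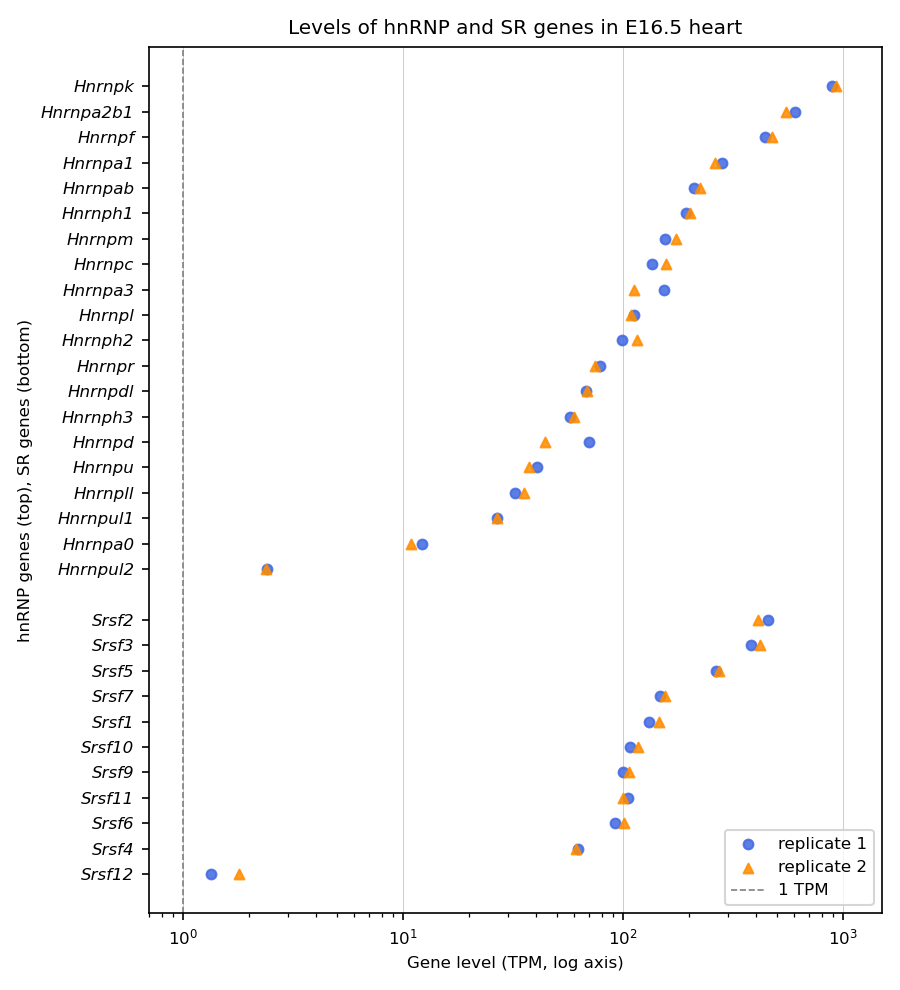
Level of each hnRNP gene (upper block) and SR gene (lower block) in TPM on a log axis, with circles for replicate 1 and triangles for replicate 2, and a dashed line at 1 TPM. Hnrnpk at 890 and 927 TPM is the highest, Hnrnpul2 and Srsf12 sit close to the line, and for most genes the libraries lie on top of each other.

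Among the SR genes, Srsf2 and Srsf3 stood above the rest. Srsf2 (ENSMUSG00000034120, chr11:116849901-116853094, minus strand, GRCm38/mm10), also called SC35 and known to be needed in heart muscle, was at 454 TPM in replicate 1 and 410 in replicate 2 (432 ± 31.6). Srsf3 (ENSMUSG00000071172, chr17:29032628-29043373, plus strand), the shortest SR protein and an adaptor for mRNA export, was at 381 and 417 TPM (399 ± 25.5). They held ranks 271 and 293 among all protein-coding genes. Srsf2 was the higher one in replicate 1 and Srsf3 in replicate 2, so their order is not settled by these libraries.

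Srsf5 (chr12:80945504-80950507) followed at 265 and 273 TPM. Srsf7, an SR protein with a zinc knuckle that also serves mRNA export, was at 146 and 155 TPM, and Srsf1, the founding member of the family, at 131 and 145 TPM. The TPM values of these 2 neighbours did not overlap: the lower value of Srsf7 was just above the higher value of Srsf1. Their credibility intervals, as given by the authors, did overlap in replicate 2 (149.1 to 155.0 and 136.3 to 149.3). Srsf10, which acts as a splicing repressor when dephosphorylated, was at 107 and 117 TPM. Srsf9 (99.96 and 106.8), Srsf11 (105 and 100.1) and Srsf6 (92.3 and 101) overlapped in TPM, and their order cannot be given. Srsf4 was lower, at 62.1 and 61.0 TPM. Srsf12, a divergent member, was at 1.34 and 1.80 TPM, from 71 and 104 estimated counts, and was the lowest of all 31 genes.

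Much of the SR signal lay on transcripts annotated as not making protein. The annotation types used here are protein_coding, nonsense_mediated_decay (a stop codon far ahead of the last exon junction), retained_intron (part of an intron kept, no reading frame given) and processed_transcript (spliced, no reading frame given). Over the 11 SR genes, protein_coding transcripts held 55.7% and 57.0% of the TPM in replicates 1 and 2, nonsense_mediated_decay transcripts 15.9% and 14.2%, retained_intron transcripts 22.4% and 24.6%, and processed_transcript forms 5.997% and 4.26%. Over the 20 hnRNP genes the same types held 83.6% and 82.3%, 1.53% and 0.969%, 11.5% and 13.1%, and 3.27% and 3.46%. The libraries gave close values for each of these shares, and the SR and hnRNP values did not overlap for any of the 4 types. Hnrnpa2b1, Hnrnpf, Hnrnpa1, Hnrnpab, Hnrnpc, Hnrnph2, Hnrnpul1, Hnrnpa0 and Hnrnpul2 had only protein_coding transcripts among those quantified, as did Srsf7 and Srsf12. Their coding share of 100% was fixed by the annotation, and they are part of the family shares.

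For a like comparison, the shares were taken over genes that averaged 10 TPM or more and had 2 or more transcripts in the tables, 27 members and 6023 protein-coding genes in all. In that set protein_coding transcripts held 52.4% ± 0.89 of the TPM of 9 SR genes, 82.9% ± 0.89 of 18 hnRNP genes and 84.0% ± 0.18 of all genes. Nonsense_mediated_decay transcripts held 16.4% ± 1.28, 1.26% ± 0.40 and 2.12% ± 0.061. Retained_intron transcripts held 25.6% ± 1.71, 12.4% ± 1.14 and 8.98% ± 0.29. The median gene's own retained_intron share was 11.2% for SR genes, 0.785% for hnRNP genes and 1.41% for all genes. Hnrnpk, the highest hnRNP gene, had 40.9% of its TPM on such transcripts. By estimated counts these transcripts held 4.45% and 4.76% of the hnRNP genes, beside 4.64% and 4.56% of all genes. For the SR genes this share was 23.4% and 25.0%. The median gene of the whole set had 92.5% of its TPM on coding transcripts, the median hnRNP gene 93.3% and the median SR gene 60.3%. The coding-only members that remain in this set are all hnRNP genes, so the limit given above holds here too.

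TPM divides by length, so a short annotated fragment takes a larger share of TPM than of reads. By estimated counts, coding transcripts held 69.2% and 68.6% of the 11 SR genes and 92.6% and 92.4% of the 20 hnRNP genes, and nonsense_mediated_decay transcripts 7.98% and 7.62% against 0.792% and 0.577%. Retained_intron transcripts held 21.1% and 22.5% against 4.43% and 4.73%. For these 3 types the order of the families was the same on both scales. It reversed for processed_transcript forms, which by counts held 1.75% and 1.22% of the SR genes and 2.12% and 2.28% of the hnRNP genes. A read that fits several overlapping models is divided among them by the authors' estimate, so each transcript's share carries the error of that split.

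**Figure D2:**
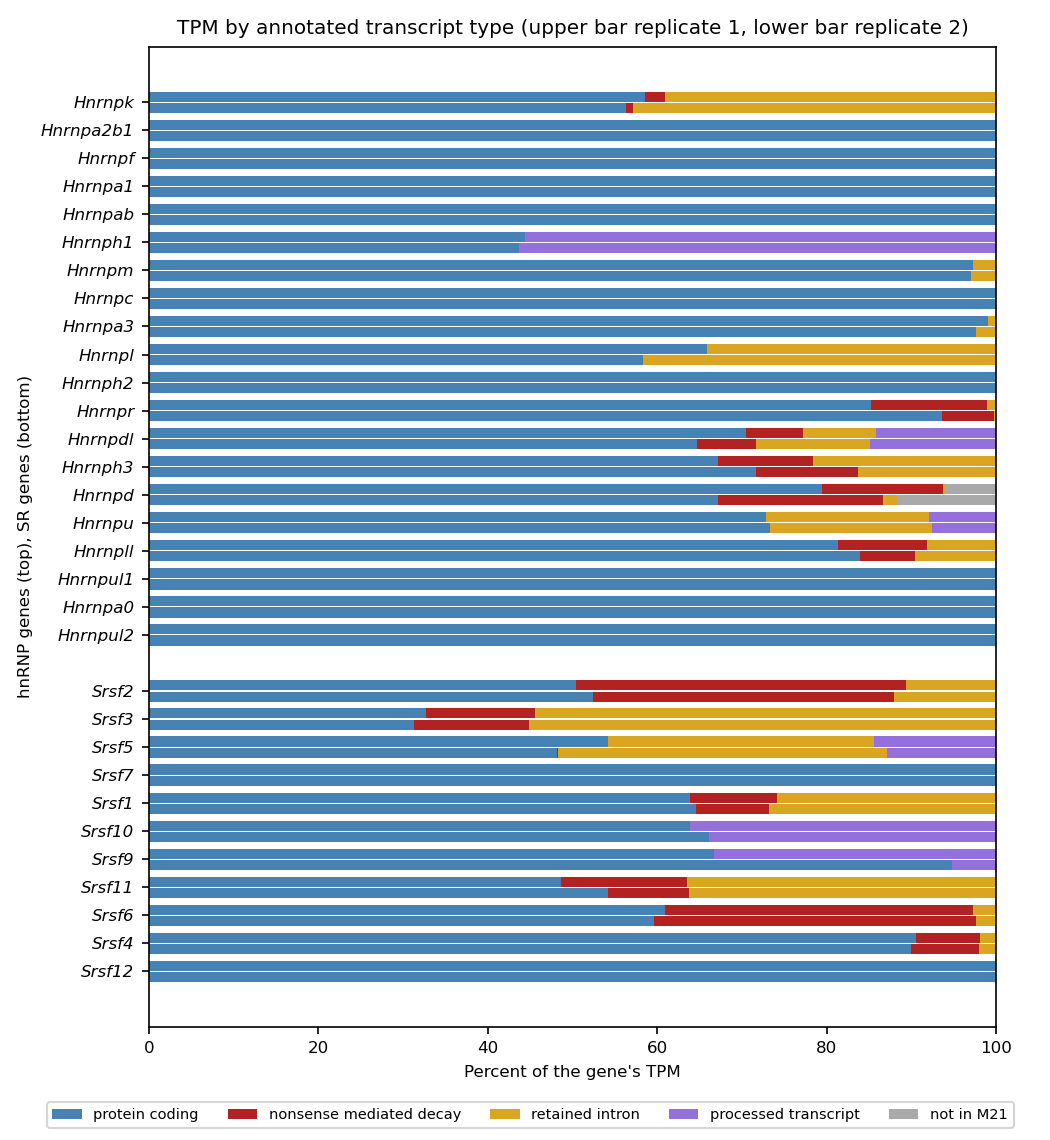
Percent of each gene's TPM on annotated transcript types, with the upper bar of each pair for replicate 1 and the lower for replicate 2 (grey: 1 transcript of Hnrnpd that is not in GENCODE M21). Red or gold blocks are wide for Srsf2, Srsf3, Srsf5, Srsf6 and Srsf11 and for Hnrnpk and Hnrnpl, and Hnrnph1 and Srsf10 carry wide purple blocks.

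Among the 27 members of that set, 14 had an annotated nonsense_mediated_decay transcript (7 of 9 SR and 7 of 18 hnRNP genes), against 28.9% of all genes in it. At least 10% of the gene's TPM lay on such transcripts in each library for 5 of these 14, namely Srsf2, Srsf3, Srsf6, Hnrnph3 and Hnrnpd, against 25.2% of genes that have one. At 20% or more were Srsf2 and Srsf6, against a background of 15.3%. The 6 highest mean shares were those of Srsf2 (37.3% ± 2.36), Srsf6 (37.1% ± 1.2), Hnrnpd (16.9% ± 3.62), Srsf3 (13.2% ± 0.46), Srsf11 (12.2% ± 3.77) and Hnrnph3 (11.6% ± 0.63). By estimated counts the shares of Srsf2 and Srsf6 were 15.1% and 21.5%. That of Srsf11 was 3.67%, and its leading models of this type, Srsf11-206 and Srsf11-212, are 940 and 392 nt long.

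The exon structures in M21 show what kind of event each annotation stands for. The members have 23 annotated nonsense_mediated_decay transcripts in the tables, 22 of them with the same length in M21, and in all 23 M21 models the annotated stop lies more than 50 nt ahead of the last exon junction. In 9 transcripts of 6 genes the stop lies in an additional exon that the gene's highest coding transcript does not have, the poison exon layout. In 6 the stop is that of the coding transcript but a further junction follows it, as in Srsf2-204, Hnrnpdl-201 and Hnrnpd-208. The other 8 use other stops. The stretches below run from the first base of the additional exon, as the named transcript has it, to its in-frame stop, 5' to 3' on the gene's strand, read from the GENCODE M21 transcript sequences. They are shown for the transcripts with a mean share of over 5% of the gene's TPM, since they are the sequences that would end translation early, and the capitals mark the stop codon.
Srsf6-201: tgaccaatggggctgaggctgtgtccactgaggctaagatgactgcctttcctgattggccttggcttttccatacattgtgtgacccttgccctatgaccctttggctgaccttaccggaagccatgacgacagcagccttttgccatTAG
Srsf3-201: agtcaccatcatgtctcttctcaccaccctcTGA
Hnrnpll-203: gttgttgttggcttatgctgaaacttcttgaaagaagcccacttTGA
Srsf11-206: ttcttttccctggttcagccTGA
Srsf11-212: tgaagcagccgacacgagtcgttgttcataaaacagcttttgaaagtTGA
Srsf4-204: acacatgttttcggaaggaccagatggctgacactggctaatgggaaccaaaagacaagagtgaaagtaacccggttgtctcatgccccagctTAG

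The Srsf6 stretch lies at chr2:162932815-162932966 (plus strand, GRCm38/mm10) and makes up the first 152 of 268 bases of an exon between exons 2 and 3 of the coding transcript. From its TAG codon, 534 nt follow to the last exon junction. Srsf6-201, which carries this exon, held 36.3% and 38.0% of the TPM of Srsf6, or 33.5 and 38.5 TPM, while the coding Srsf6-203 held 60.5% and 59.5%. The 3 transcripts that include bases of the exon together held 39.5% and 40.5% of the gene's TPM, and 23.8% and 24.5% of its estimated counts. Coding transcripts alone put Srsf6 at 56.2 and 60.4 TPM.

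In Srsf3 the stop comes early, after 34 of 456 bases, at chr17:29039454-29039487 (plus strand), between exons 3 and 4 of the coding transcript. The poison-exon transcript Srsf3-201 held 12.9% and 13.6% of the gene's TPM, beside 32.7% and 31.3% for the coding Srsf3-202. The highest transcript was the retained_intron model Srsf3-205, at 44.8% and 46.0%, and a further one, Srsf3-204, held 9.56% and 9.14%. For Srsf3 the quantified models are not those of M21: Srsf3-201 is 1919 nt in the tables and 2594 nt in M21, and Srsf3-205 is 910 nt and 2110 nt. The exons of the quantified versions were not used here, so no sum over transcripts with the poison exon is given for this gene. The coding transcript alone gave 125 and 131 TPM, which moved Srsf3 from rank 5 to rank 12 among the 31 genes.

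Srsf2 has the other layout. Srsf2-204, a model of 620 nt, ends its reading frame at the same stop as the coding transcript, and the last junction lies 113 nt behind that stop. It is a partial model: its coding part starts at its first base, and the stop lies in its first exon, of 66 nt. Srsf2-204 has 2 exons behind the exon with that stop, where the coding transcript has 1. It held 38.3% and 35.0% of the TPM of Srsf2, or 174 and 143 TPM, beside 50.5% and 52.4% for the coding Srsf2-201. The retained_intron model Srsf2-203 keeps intron 2 (1059 nt), which lies behind the normal stop, and held 10.5% and 11.98%. By estimated counts Srsf2-204 held 15.4% and 13.6%.

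The remaining poison exons shown lie in Hnrnpll, Srsf11 and Srsf4. The Hnrnpll stretch (chr17:80044976-80045022, minus strand) belongs to Hnrnpll-203, which held 10.5% and 6.57% of the TPM of that gene, a regulator of Ptprc (CD45) splicing in lymphocytes. Srsf11 has 2 poison exons in its second intron. The stretch of Srsf11-206 (chr3:158024209-158024231, minus strand) belongs to a transcript at 7.76% and 5.54%, and that of Srsf11-212 (chr3:158023310-158023359, minus strand) to one at 6.86% and 3.75%. Other models hold these exons too. Among models with the same length in M21, those with the first exon summed to 20.02% and 16.65% of the TPM of Srsf11. Those with the bases of the second summed to 20.3% and 15%, with Srsf11-206 counted in both. By estimated counts these sums were 11% and 8.79%, and 12.8% and 10.8%. For Srsf11-212 the last junction lies 67 nt behind the stop, close to the 50 nt of the rule. The Srsf4 stretch (chr4:131884295-131884390, plus strand) is the first exon of the partial model Srsf4-204, at 5.98% and 5.63%. The same exon starts further upstream in Srsf4-203, where it is 207 nt long against 188 nt in Srsf4-204, and both transcripts together held 7.54% and 8.07%. The coding Srsf4-202 held 90.6% and 89.96%, and its mean coding share of 90.3% ± 0.44 was the highest of the 9 SR genes in the set. Srsf7 had a single transcript in the tables against 8 in M21, 1 of them of the nonsense_mediated_decay type, so a poison transcript of Srsf7 could not be measured here.

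Retained_intron transcripts held more TPM than the other non-coding types in both families. Of the 27 members, 17 had a retained_intron transcript, against 60.0% of all genes in the set. At least 20% of TPM lay on such transcripts in each library for 6 of these 17, against 22.5% of the genes that have one. They were Srsf3 (54.8% ± 0.51), Hnrnpk (40.9% ± 2.69), Hnrnpl (37.9% ± 5.38), Srsf11 (36.4% ± 0.15), Srsf5 (35.1% ± 5.32) and Srsf1 (26.4% ± 0.66). In Srsf5 the 2720-nt model Srsf5-212 keeps intron 5, of 1229 nt, and held 30.6% and 38.15% of the TPM. The coding Srsf5-201 held 30.6% and 26.2%. By estimated counts Srsf5-212 held 47.5% and 56.1%, so this share was larger on the scale that does not divide by length. In Hnrnpk the model Hnrnpk-217, at 29.7% and 27.2%, keeps a short intron of 78 nt, number 13 of 15, and is only 874 nt long. Its share by estimated counts was 13.9% and 13.0%.

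**Figure D3:**
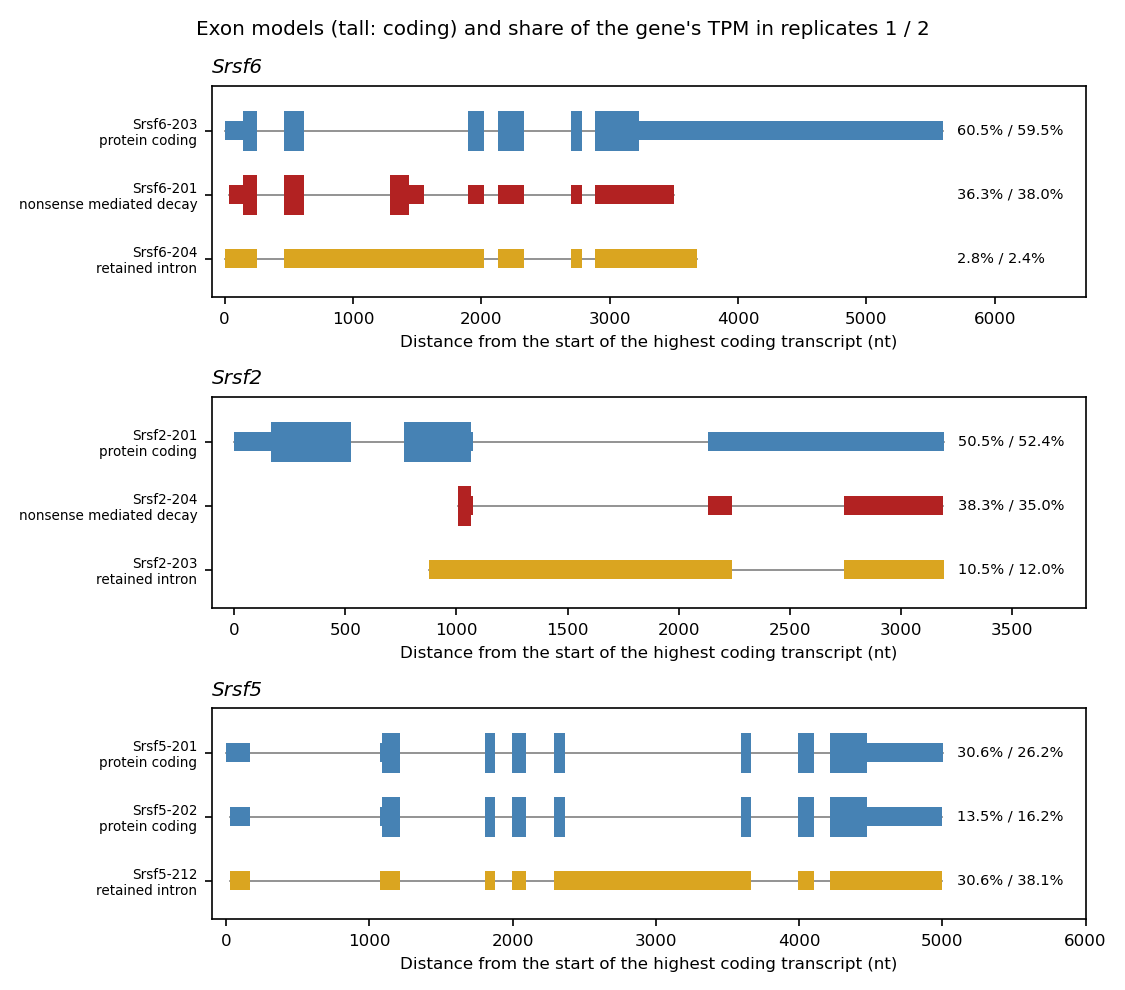
M21 exon models of Srsf6, Srsf2 and Srsf5 drawn to scale by distance in nt from the start of the highest coding transcript, with coding parts as tall blocks, lines for introns, and each transcript's percent of the gene's TPM in replicates 1 and 2 at the right. The poison exon of Srsf6-201 stands alone between coding exons, Srsf2-204 has a further junction behind the coding end, and Srsf5-212 keeps intron 5.

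Srsf3 and Srsf5 were the only members, of 27, whose highest transcript was not protein_coding in both libraries, against 7.52% of all genes in the set. By estimated counts this was true of Srsf5 alone, and no share over all genes was taken on that scale. Under 50% of TPM on coding transcripts in each library was seen in Srsf3 (32.7% and 31.3%) and Hnrnph1 (44.4% and 43.7%), against 8.95% of all genes.

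Among the hnRNP genes, Hnrnpk stood first. Hnrnpk (ENSMUSG00000021546, chr13:58391142-58403343, minus strand), which binds C-rich RNA through KH domains, was at 890 and 927 TPM (908 ± 25.9) and held rank 109 among all protein-coding genes. Hnrnpa2b1 (ENSMUSG00000004980, chr6:51460932-51469894, minus strand), a splicing repressor that also sorts RNAs for transport, was at 605 and 549 TPM (577 ± 39.1). Hnrnpf (chr6:117900324-117925622, plus strand), which binds runs of G, was at 441 and 475 TPM (458 ± 23.4). The 3 genes kept this order in both libraries. On coding transcripts alone Hnrnpk gave 521.5 TPM in each library and stood behind Hnrnpa2b1, all of whose transcripts in the tables are coding.

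The next hnRNP genes were close to each other. Hnrnpa1, a general antagonist of SR proteins at splice sites, was at 282 and 261 TPM. Hnrnpab was at 210 and 222 TPM, and Hnrnph1, another binder of G runs, at 192 and 202 TPM, with no overlap of values between these neighbours. The credibility intervals of Hnrnpab and Hnrnph1 did overlap in replicate 1 (200.8 to 209.6 and 184.3 to 203.7). Hnrnpm (155 and 173 TPM) and Hnrnpc (135 and 156 TPM), which binds U tracts, overlapped only across the libraries. Within each library Hnrnpm was the higher one, with separate credibility intervals. These were 147.9 to 157.7 and 129.2 to 134.4 in replicate 1, and 165.2 to 175.7 and 150.6 to 155.9 in replicate 2. Hnrnpa3 was at 153 and 112 TPM. Hnrnpl, which binds CA repeats, was at 112 and 108 TPM and the X-linked Hnrnph2 at 99 and 116 TPM. The lower group ran from Hnrnpdl (67.6 and 68.4 TPM) and Hnrnph3 (57.4 and 59.9) through Hnrnpd (70.3 and 44.3) and Hnrnpu (40.7 and 37.3), a nuclear scaffold protein known to be needed in heart muscle, to Hnrnpll (32.3 and 35.3) and Hnrnpul1 (26.6 and 26.8). Hnrnpul2 was at 2.40 and 2.39 TPM. Hnrnpr and Hnrnpa0 were at 76.5 ± 2.74 and 11.5 ± 0.89 TPM.

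The split of TPM among transcripts was then compared between the 2 libraries. The highest transcript was the same in both libraries for 21 of 27 members, against 93.5% of all genes in the set. All 9 SR genes and 12 of 18 hnRNP genes were among the 21, and the exceptions were Hnrnpa2b1, Hnrnpf, Hnrnpab, Hnrnpa3, Hnrnpl and Hnrnpdl. In Hnrnpab, Hnrnpf and Hnrnpdl, coding transcripts of close shares changed places. No share there moved by more than 1.71, 4.36 and 6.32 percentage points. By estimated counts 26 of 27 had the same highest transcript, and no share over all genes was taken on that scale. A transcript share moved by more than 10 percentage points in 4 of 27 members, close to the 16.4% of all genes. In Hnrnpa2b1 the 1662-nt Hnrnpa2b1-202 held 54.8% and 42.4% and the 4086-nt Hnrnpa2b1-203, which is 1728 nt in M21, held 33.1% and 42.9%. In Hnrnpa3, Hnrnpa3-204 held 53.2% and 33.6% and Hnrnpa3-202 26.8% and 39.9%. Hnrnpa3-204 had 3376 and 1728 estimated counts. The pseudogene Gm5641, identical to a coding transcript of Hnrnpa3 over 1488 nt, had 1709 and 3438. The part of such copies in this shift was not tested. For Hnrnpl the coding Hnrnpl-202 held 35.6% and 20.9%, while Hnrnpl-210, a model of 672 nt that keeps intron 11 (118 nt), held 10.4% and 24.3%. The remaining case was Srsf9, where the 474-nt processed_transcript Srsf9-202 held 32.6% in replicate 1 and 4.18% in replicate 2, from 326 and 49.7 estimated counts. In M21 that model is 1237 nt long.

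Forms with no annotated reading frame were prominent in Hnrnph1. Its 15 processed_transcript models together held 55.6% and 56.3% of its TPM, led by the 816-nt Hnrnph1-212 at 26.4% and 25.2%. The coding Hnrnph1-201 held 29.5% and 30.6%. In Srsf10 such forms held 36.1% and 33.9%. In Hnrnpd, the AU-rich-element binding protein also called AUF1, the leading nonsense_mediated_decay transcript was Hnrnpd-208 at 12.3% and 17.2%, with a further junction behind the normal stop, and in Hnrnph3 it was Hnrnph3-204 at 11.2% and 12.1%.

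Members of the families were then compared as 14 pairs of related genes, by the log2 ratio of their TPM in each library. A direction was called where both libraries gave it and the authors' credibility intervals for the pair were separate in each. This held for 13 pairs, with the first-named gene higher in 11. The widest ratios set a weakly expressed member against a common one: Srsf10 over Srsf12 gave 6.17 ± 0.21, Hnrnpu over Hnrnpul2 4.02 ± 0.09 and Hnrnpul1 over Hnrnpul2 3.48 ± 0.01. Hnrnpa2b1 was above Hnrnpa3 by 2.14 ± 0.22 and above Hnrnpa1, for which the ratio of Hnrnpa1 over Hnrnpa2b1 was -1.09 ± 0.02. Hnrnpab was above Hnrnpd by 1.95 ± 0.53, Hnrnpl above the lymphoid Hnrnpll by 1.70 ± 0.13, and Hnrnpf above Hnrnph1 by 1.22 ± 0.02.

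Among the SR pairs, Srsf5 was above Srsf6 by 1.48 ± 0.06, Srsf3 above Srsf7 by 1.40 ± 0.03 and Srsf1 above Srsf9 by 0.41 ± 0.04. Srsf4 over Srsf6 gave -0.65 ± 0.11. The ratio of Hnrnpd over Hnrnpdl was 0.06 in replicate 1 and -0.63 in replicate 2, and no direction was called. Limiting both genes to protein_coding transcripts turned the direction of 2 pairs. Srsf3 over Srsf7 went from 1.40 to -0.24, and Hnrnph1 over Hnrnph2 from 0.88 to -0.30, with both libraries below 0 in each case. For Srsf4 over Srsf6 the coding ratio was -0.07, and for Srsf1 over Srsf9 it was 0.32 in replicate 1 and -0.11 in replicate 2. The family sums moved too: on coding transcripts the hnRNP sum was 2.89 ± 0.13 times the SR sum. Srsf7 and Hnrnph2 have only coding transcripts in the tables, which limits their comparisons with Srsf3 and with Hnrnph1.

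**Figure D4:**
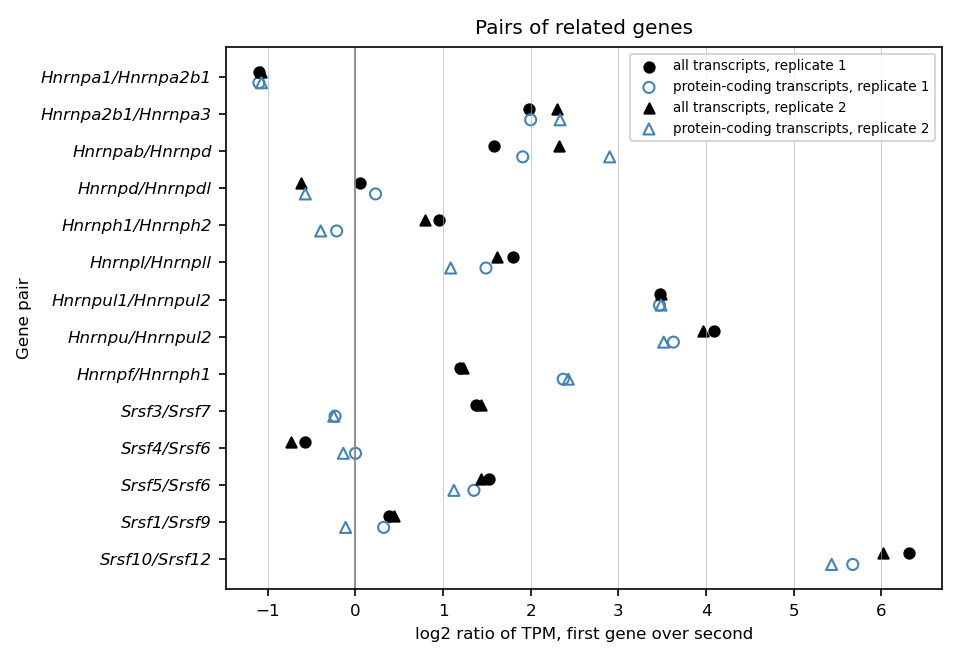
The log2 ratio of TPM, first gene over second, for 14 pairs of related genes, in filled black symbols for all transcripts and open blue symbols for protein_coding transcripts, with circles for replicate 1 and triangles for replicate 2. Blue symbols of Hnrnph1/Hnrnph2 and Srsf3/Srsf7 lie left of 0 and the black ones right of it.

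Between the libraries the median member differed about as much as the median gene. Each pool gave 1 library, so differences between pools and between library preparations cannot be told apart. Differences are log2 ratios of replicate 2 over replicate 1 in TMM-scaled CPM (counts scaled to library size) with 0.5 added to each count, over the 12987 protein-coding genes that averaged 1 TPM or more. Only Hnrnpd of 31 members was more than 1.5-fold apart, against 7.12% of all those genes, and it was higher in replicate 1, as were 2.89% of all genes, and 4.24% were that much higher in replicate 2. None was more than 2-fold apart, against 2.96%. The median ratio of the members was 0.09, beside -0.01 over all genes, and the median size of the ratio was 0.13 for both. The authors' credibility intervals lay apart for 15 of 31 members, against 30.0% of all genes. The median level was 110 TPM for the members and 15.3 TPM for the 12987 genes, so these shares are not matched for level.

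Hnrnpd had 2541 estimated counts in replicate 1 and 1701 in replicate 2, a log2 ratio of -0.68. Its TPM intervals were 66.0 to 76.4 and 41.1 to 48.7. On coding transcripts it was at 55.8 and 29.8 TPM. At the other end were Srsf12 and Srsf9, both at 0.44. Srsf12 rested on few counts. For Srsf9 the ratio was 0.10 on the scale of TPM + 0.1, and the short Srsf9-202 held a larger part of its TPM in replicate 1.

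By direction alone, 23 of 31 members were higher in replicate 2, against 47.2% of all genes. Of the SR genes 10 of 11 were, all but Srsf2, with a median ratio of 0.15, and of the hnRNP genes 13 of 20, with a median of 0.04. On the TPM + 0.1 scale the count was 19 of 31, with 8 SR and 11 hnRNP genes, against 37.9% of all genes. Every SR ratio was below the 1.5-fold line. Thymus and skeletal muscle markers were also higher in replicate 2 and lung markers in replicate 1, as given above, and their part in these ratios was not tested.

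Near-identical pseudogene copies bear on some of these values, since a read that fits both is divided by estimate. The members' coding transcripts with a mean share of at least 5% of the gene's TPM were aligned to all annotated pseudogene transcripts. This gave 58 measured copies of 13 members, at 90% identity or more over at least 300 nt, and 49 of them had counts. A further 16 copies were not measured. Hnrnpa3 had 27 of the measured copies. Its copies held 1798 and 3617 estimated counts, equal to 20.7% and 48.5% of the gene's own. The largest was Gm5641, identical over 1488 nt, at 45.8 TPM in replicate 1 and 83.0 in replicate 2, while Hnrnpa3 itself was at 153 and 112 TPM. The ratio of Hnrnpa3 between the libraries was -0.32 for the gene and -0.02 for the gene plus its copies.

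Other copies were smaller beside their genes. For Hnrnpk, Gm7964 (99.2% identity) was at 52.0 and 86.8 TPM, and its counts equalled 4.57% and 7.48% of the gene's own. For Srsf3, Gm9761 (99.6% identity over 492 nt) was at 63.4 and 89.4 TPM, though the counts of all Srsf3 copies equalled only 2.28% and 2.99% of the gene's own. For Hnrnpc, Gm12696 (93.9%) was at 34.4 and 40.3 TPM, and for Hnrnpa1, Gm10052 (100% over 960 nt) at 4.03 and 22.7 TPM. All 8 copies that averaged 1 TPM or more were higher in replicate 2, with a median log2 ratio of TPM + 0.1 of 1.38. Over all 802 pseudogenes at that level 86.2% were higher in replicate 2, with a median of 1.31. Hnrnpd had no measured copy by this rule.

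**Figure D5:**
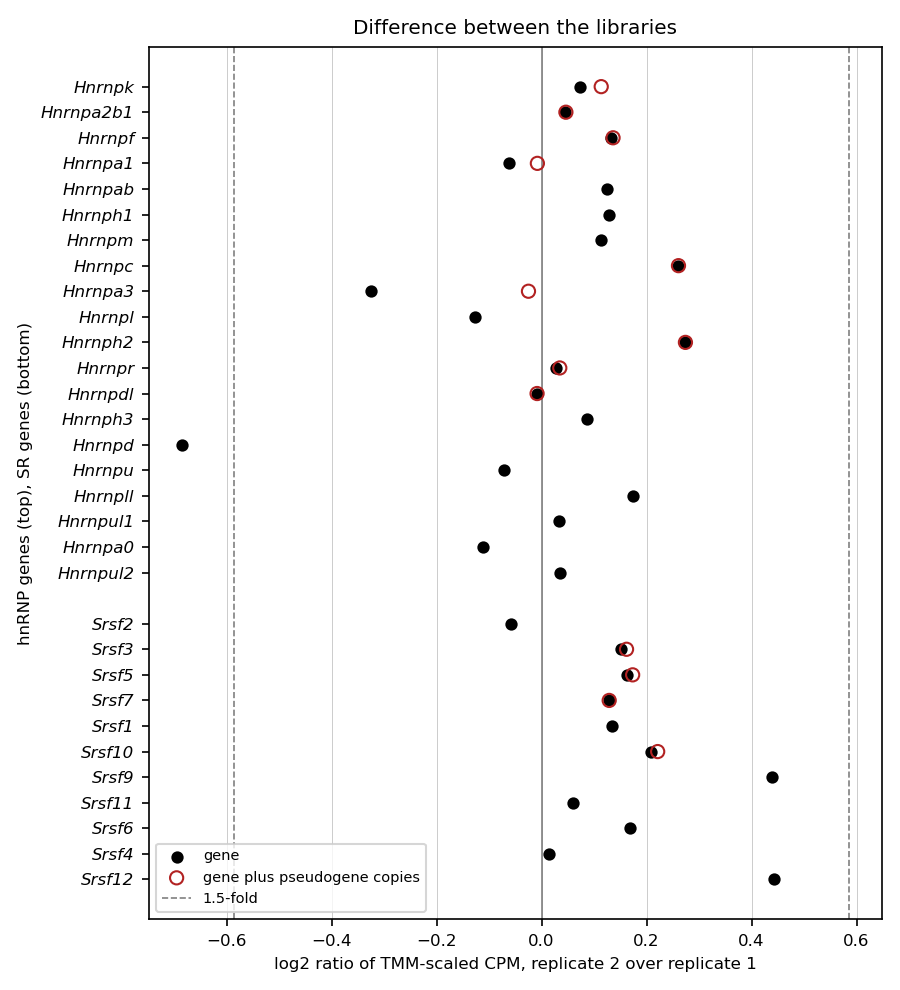
The log2 ratio of TMM-scaled CPM, replicate 2 over replicate 1, for each gene (black) and for the gene plus its pseudogene copies where it has any (red circles), with dashed lines at 1.5-fold. Hnrnpd at -0.68 is the only point outside the lines, and Hnrnpa3 moves from -0.32 to -0.02.

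The partners of these families were present as well. All 9 kinases of SR proteins were at 1 TPM or more in each library, with a median of 32.0 TPM and none more than 1.5-fold apart. The highest were Clk1 (104 and 120 TPM) and Clk4 (61.4 and 65.4), nuclear kinases that release SR proteins from speckles, and Srpk3 (81.7 and 75.5), the form known from striated muscle. All 12 SR-related proteins were expressed by the same rule, with a median of 61.2 TPM. They were led by the scaffold Srrm2 (223 and 210 TPM), the exon activator Tra2b (162 and 172) and the splice-site factor U2af1 (145 and 170), and none was more than 1.5-fold apart.

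The 8 hnRNP proteins that carry other gene names had a median of 69.9 TPM, all at 1 TPM or more in each library. Ptbp1, a repressor that binds pyrimidine tracts, was at 105 and 115 TPM. Pcbp1, a poly-C binding relative of Hnrnpk, was at 221 TPM in replicate 1 and 118 in replicate 2, a log2 ratio of -0.85 and the only one of the 8 more than 1.5-fold apart. The 10 factors of nonsense-mediated decay were all at 1 TPM or more in each library, at a lower median of 10.9 TPM, and none was more than 1.5-fold apart. Smg5 was at 43.0 and 40.1 TPM and Upf3a at 24.7 and 27.9.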

How the data were processed

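Extraction was by mirVana kit, per the labels' protocols. Per the notes deposited with the files, reads were quantified on mm10 with annotation M4, 1 library per table. The sources used here do not give the aligner, the quantification tool or the use of strand, so antisense reads may be included. In the deposited tables are expected counts (estimated by the authors, not normalized), TPM over all rows with spike-ins, the percent of gene TPM on each transcript, and credibility bounds of TPM, which are deposited as a score-like value with no stated level. Only Ensembl rows were used, 36559899 and 38982917 counts. Intervals cover counting and assignment error only.

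Names, types, exons and sequences came from GENCODE M21 (GRCm38, the assembly of mm10), and 192 of the 211 member transcripts found there (91.0%) had the same length. M21 lists 71 member transcripts that are not in the tables. Counts were rounded to whole numbers and scaled by TMM (factors 0.996 and 1.00, edgeR 4.0.16), which was tested on simulated data, and DESeq2 1.42.0 size factors were an alternative. Copies were found with blastn. Named are the 8 hnRNP and 6 SR genes of highest mean TPM, members more than 1.5-fold apart or with a non-coding highest transcript, the 6 highest nonsense_mediated_decay shares, genes of the pairs and up to 3 genes per list, some of which are not reported here. Single transcripts, pseudogene copies, Hnrnpr and Hnrnpa0 were chosen after their values were seen. Members, lists and tests were chosen with earlier results of these data known.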

Additional observations from a re-analysis of the deposited data

How the results depend on the processing

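With 2 libraries, leaving one out gives the value of the other. Where a main value is the mean of the 2 libraries, each single value lies within their SD by construction. No paired analysis was possible because there is a single group. Of 65 alternative values of the main results 52 stayed within their limits. The 52 include such leave-one-out values, which were bound to stay. TPM rescaled over nuclear protein-coding genes gave a median of 138 TPM. By estimated counts the ratio of hnRNP to SR was 2.20, and the coding, nonsense_mediated_decay and retained_intron shares over all 31 genes were 85.1%, 2.91% and 9.97%, from 74.0%, 5.91% and 16.1%. As medians of the genes' own shares they were 82.6%, 0 and 0.933%. By counts 1 member had a non-coding highest transcript, with no share over all genes taken on that scale. With coding transcripts only, chosen after seeing the data, the ratio was 2.89, Hnrnph1 over Hnrnph2 -0.30 and Srsf3 over Srsf7 -0.24. Members with at least 10% of TPM on nonsense_mediated_decay transcripts numbered 11 at 5%, 2 at 20%, and 5 to 9 when 1 library was left out, with 9 without replicate 2. The cause of these changes was not tested, apart from what each scale leaves out. Of 118 values of single genes and pairs, 90 stayed within their spread, 26 moved and 2 reversed. The 90 also include leave-one-out values that were bound to stay. A gene of 1500 nt with 0 counts could have reached 0.0802 and 0.0722 TPM, well below every member.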
